A study of Mus musculus with 16 samples.

Results

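The genes described here build or remodel the extracellular matrix, the protein scaffold around and beneath cells. They are the collagens, laminins, fibulins, fibrillins, matrix metalloproteinases (MMPs), ADAMTS proteases and tissue inhibitors of metalloproteinases (TIMPs), with elastin (Eln), the crosslinking enzymes Loxl1 and Loxl2, and Sparc, Dcn and Lum. They were chosen by name, from symbols that begin with Col, Lama, Lamb, Lamc, Fbln, Fbn, Mmp, Timp or Adamts and a digit, or that are 1 of the single names. Earlier results of these data were known when the names were chosen. Of 17174 named genes on the arrays, 102 were taken. Lox, Lama3, Lamc1, Col6a3 and Col12a1 are not analysed here.

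Fibrillar collagens such as types I and III give interstitial tissue its tensile strength, type IV collagen and laminins form the basement membrane under airway epithelium, and elastic fibres let the airway recoil. MMPs and ADAMTS proteases cut these proteins, and TIMPs block the MMPs. Matrix deposition under the epithelium is a known feature of asthmatic airways, and the epithelial integrin that contains the beta6 subunit is known to activate latent TGF-beta, a cytokine that raises transcription of many matrix genes.

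The arrays measured RNA of brushed airway epithelium from FVB mice ("FvB" in the labels), either wild type (wt) or knockout (ko) for beta6, the integrin subunit encoded by Itgb6. The wt_OVA and ko_OVA mice received 20 ug of ovalbumin (OVA), an egg protein used as an allergen, into the peritoneum on days 1, 4 and 7, and then 10 ug into the nose weekly for 9 weeks. The wt_saline and ko_saline mice received saline on the same schedule, all were 6 to 8 weeks old when first dosed, and tissue was taken 24 h after the final dose. Each of the 4 groups has 4 one-colour arrays, and since the labels do not say that arrays came from separate mice, p-values measure only the spread between these samples, which may be technical. The labels give no allele for the knockout and do not say whether mice were pooled.

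Levels are given as log2 of a probe's signal over the 75th percentile of its array, so 0 is the signal of that percentile, and signals under a common floor of -3.32 were set to it. The 75th percentile itself ran from 78.0 to 793 intensity units, and the share of probes well above background from 43.3% (ko_OVA 4) to 74.5% (wt_OVA 1). Itgb6 lay between -0.93 and -0.39 on the wt arrays and between -1.71 and -0.73 on the ko arrays. Whether its probe lies in the disrupted part of the gene is not given in the sources used here, so this checks nothing. All 10 epithelial markers were measured, 7 to 10 of them above background on an array, with a summed signal of 721 to 5414 times the 75th percentile. Spots left out as outliers add nothing to such sums and count as not above background. The lowest epithelial sum was on wt_saline 4, the array with the most spots marked as outliers (439). The 10 fibroblast markers summed to 8.28 to 22.0 and the 8 smooth muscle markers to 11.1 to 30.2, and sums of different probes cannot be set against each other. The 7 of 8 endothelial markers measured summed to 1.21 to 3.23.

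Of the 102 matrix genes, 71 passed the filters on dim probes. Under these 1 probe must exceed background clearly on 4 or more of the 16 arrays, and must lie above the floor on at least 1 array. Another 8 were above background on no array and 20 on 1 to 3 arrays. The other 3, Col5a2, Col11a1 and Col25a1, were above background on 4 or more arrays but never above the floor. A gene can pass through the group in which it is high, so the counts below describe the tested genes and not all 102. All 4 TIMPs and all 3 genes of the Sparc, Dcn and Lum group were tested, as were 9 of 11 fibrillar collagens, 10 of 12 basement membrane and network collagens and 6 of 9 laminins. The proteases were measured less completely, with 12 of 21 MMPs and 9 of 17 ADAMTS genes. The untested ones include Mmp7 (matrilysin, an epithelial MMP), Mmp10, Mmp19, Adamts4 and Adamts12. The other untested genes include Col5a2, Col11a1, Col4a3, Lama1, Lama2, Lamc3 and Fbln5. Of the 71, 42 were above background on all 16 arrays, while 15 lay at the floor on 8 or more arrays. An array whose spot was left out as an outlier counts here as not above background. For that reason alone Col17a1, Dcn and Timp2 are not among the 42.

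Matrix genes passed the test for OVA against saline and for no other comparison. In wt, 4 of 71 passed the limma test at an adjusted p of 0.05 (5.63%), 2 higher and 2 lower, where 2.61% of all 18566 genes passed (1.56% higher and 1.06% lower). In ko, 1 of 71 passed (1.41%), which was higher, against 0.749% of all genes (0.479% higher and 0.269% lower). Over both genotypes together, 9 of 71 passed (12.7%), 3 higher and 6 lower, against 6.46% of all genes (3.72% higher and 2.74% lower). The median log2 change of the 71 was -0.06 in wt, -0.06 in ko and -0.09 over both, beside 0.00, 0.00 and 0.01 for all genes. Dividing by the array median in place of the 75th percentile shifted the median of all genes by -0.25 in wt and -0.10 over both, and there the members' medians were -0.32 and -0.21. The same change of scaling turned the split of called genes over both genotypes from 691 higher and 509 lower to 117 higher and 262 lower. These are bulk samples, so fewer cells of a type and less RNA per cell cannot be told apart in any of these values.

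**Figure D1:**
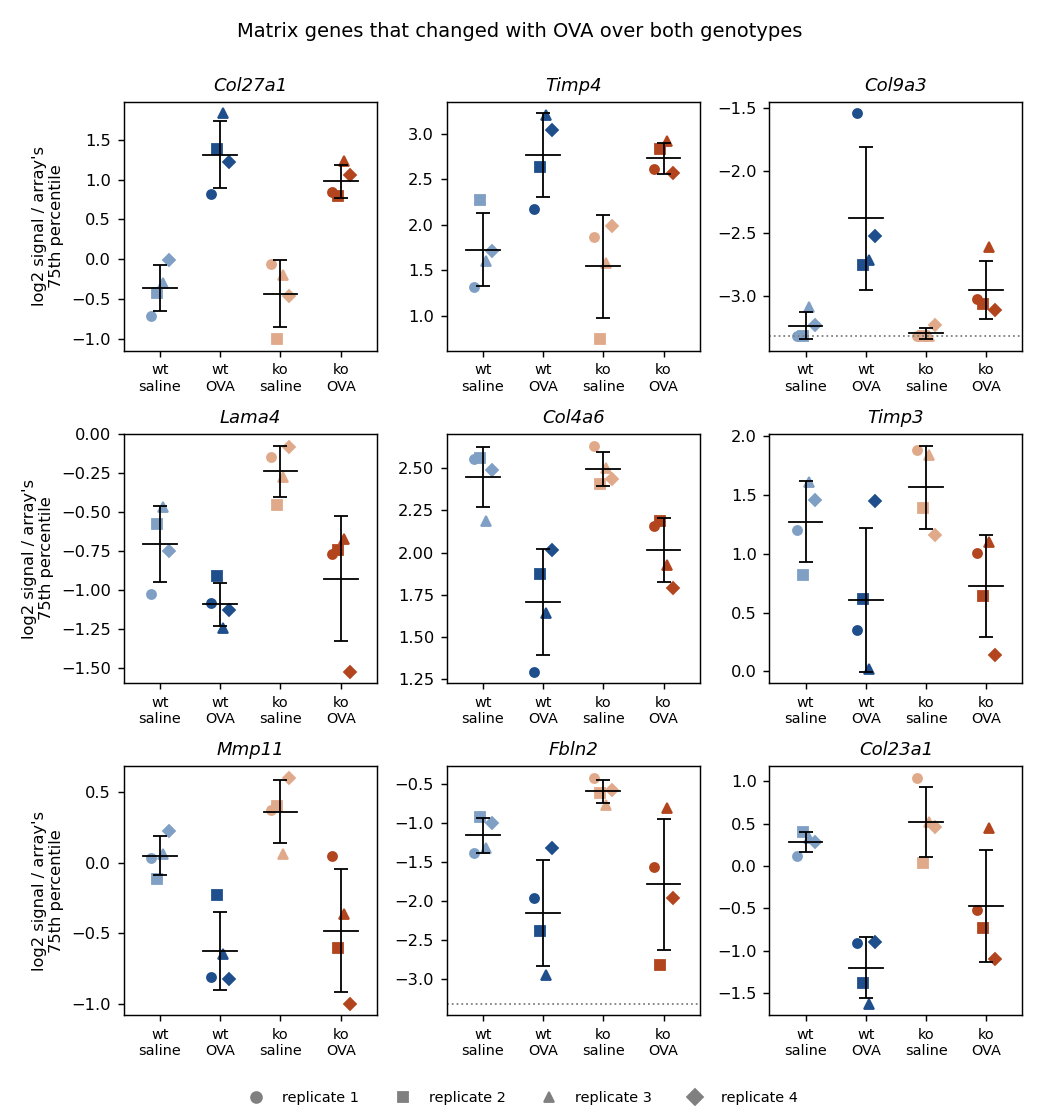
Level of each of the 9 matrix genes called for OVA over both genotypes, on every array. Points are arrays with 1 marker shape per replicate number, the black line and bars are group mean and SD (n = 4), the dotted line is the floor, and the y axis is log2 of signal over the array's 75th percentile. Col27a1 is the panel in which all 8 OVA arrays lie above all 8 saline arrays.

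Among the fibrillar collagens 1 of 9 changed. Col27a1 (gene ID 373864), which encodes the chain of type XXVII collagen, a fibrillar collagen best known from cartilage, rose with OVA in both genotypes. Its level was -0.71, -0.43, -0.30 and -0.01 on the wt_saline arrays and 0.83, 1.38, 1.84 and 1.22 on the wt_OVA arrays. In ko it was -0.06, -1.01, -0.20 and -0.47 after saline and 0.84, 0.79, 1.24 and 1.06 after OVA. The highest saline array lay below the lowest OVA array in both genotypes, and no other tested matrix gene separated all 8 OVA from all 8 saline arrays, a pattern that 1.15% of all genes showed. The change was 1.68 ± 0.23 in wt (SE, n = 4 and 4, 3.20-fold, adjusted p = 0.00172) and 1.42 ± 0.23 in ko (2.67-fold, adjusted p = 0.00944). Over both it was 1.55 ± 0.16, with a 95% interval of 1.20 to 1.90 (2.92-fold, adjusted p = 8.68e-05). The array slides that held both agents gave differences of 1.93, 1.63 and 1.40 in wt and 0.90, 1.40 and 1.70 in ko. Another Col27a1 probe gave 1.27 in wt and 1.18 in ko. The call over both genotypes held under all 13 alternatives and with each of the 16 arrays left out. Median scaling ended the call in wt (change 1.40, adjusted p = 0.107, range over all alternatives 0.0011 to 0.107). On ko arrays the values were ended by median scaling (1.43, adjusted p = 0.201) and by fitting only the groups compared (1.42, adjusted p = 0.113), in a range of 0.00379 to 0.201.

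Of the 9 genes that changed, Col27a1, Timp4 and Col23a1 had the largest changes over both genotypes, and the 250 bases before the start of each are shown so that their promoters can be compared. They are from RefSeq on GRCm38.p6, at chr4:63215162-63215411 (plus strand), chr6:115252206-115252455 (minus strand) and chr11:51289670-51289919 (plus strand), written 5′ to 3′ with GC boxes (GGGCGG or its complement CCGCCC) in capitals.
Col27a1: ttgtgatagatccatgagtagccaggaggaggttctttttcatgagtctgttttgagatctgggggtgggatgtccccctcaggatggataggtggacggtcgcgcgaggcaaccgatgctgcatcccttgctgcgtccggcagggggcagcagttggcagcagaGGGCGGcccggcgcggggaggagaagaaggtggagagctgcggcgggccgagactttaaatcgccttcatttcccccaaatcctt
Timp4: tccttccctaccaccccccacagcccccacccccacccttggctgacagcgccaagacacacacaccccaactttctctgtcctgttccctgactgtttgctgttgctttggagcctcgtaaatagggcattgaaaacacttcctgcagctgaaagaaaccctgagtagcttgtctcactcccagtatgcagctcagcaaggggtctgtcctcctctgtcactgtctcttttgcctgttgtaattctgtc
Col23a1: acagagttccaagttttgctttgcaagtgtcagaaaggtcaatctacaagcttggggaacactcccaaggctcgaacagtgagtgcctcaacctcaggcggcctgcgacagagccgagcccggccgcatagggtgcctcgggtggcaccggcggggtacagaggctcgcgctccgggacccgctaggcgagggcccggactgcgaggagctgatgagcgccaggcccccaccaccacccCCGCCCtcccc
Col27a1 and Col23a1 each hold 1 GC box in these bases and Timp4 holds 0, and their GC contents are 59.6%, 66.0% and 53.6%. In the 250 bases before the start, a GC box on either strand stood in 41 of the 72 matrix genes with a promoter entry (56.9%). It stood in 32.9% of 27025 promoters. Of the 7 changed genes with an entry, Col23a1, Col27a1, Col4a6, Fbln2, Mmp11 and Timp3 held it. The STAT-type motif TTCNNNNGAA was in 0 of 72 and in 5.9% of all promoters. The SMAD-type motif CAGACA was in 15 of 72 (20.8%) and 17.1% of all, and in 0 of the 7. CCAAT stood in 27.8% of the matrix genes and 34.5% of all, and TATAAA in 18.1% and 13.0%. These are matches of letters in a window and no measure of binding.

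The interstitial fibrillar collagens Col1a1, Col1a2 and Col3a1, which form the bulk of collagen in connective tissue, did not pass the test in any comparison. Col1a1 was 0.09, 1.37, 0.19 and 0.37 after saline and 0.36, -1.08, -0.73 and 1.04 after OVA in wt. In ko it was 1.84, 1.18, 1.22 and 0.41 after saline and 0.20, 0.00, 1.05 and -0.23 after OVA. The groups overlapped in both genotypes, and wt_OVA 2 and wt_OVA 3 were the lowest of the 16 arrays for Col1a1, Col1a2 and Col3a1 alike. The OVA change over both was -0.76 ± 0.32 for Col1a1 (adjusted p = 0.207), -0.52 for Col1a2 and -0.47 for Col3a1. Those arrays, wt_OVA 2 and wt_OVA 3, also had the lowest summed fibroblast marker signal of the 16 (8.28 and 8.72), and their part in these values was not tested.

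**Figure D2:**
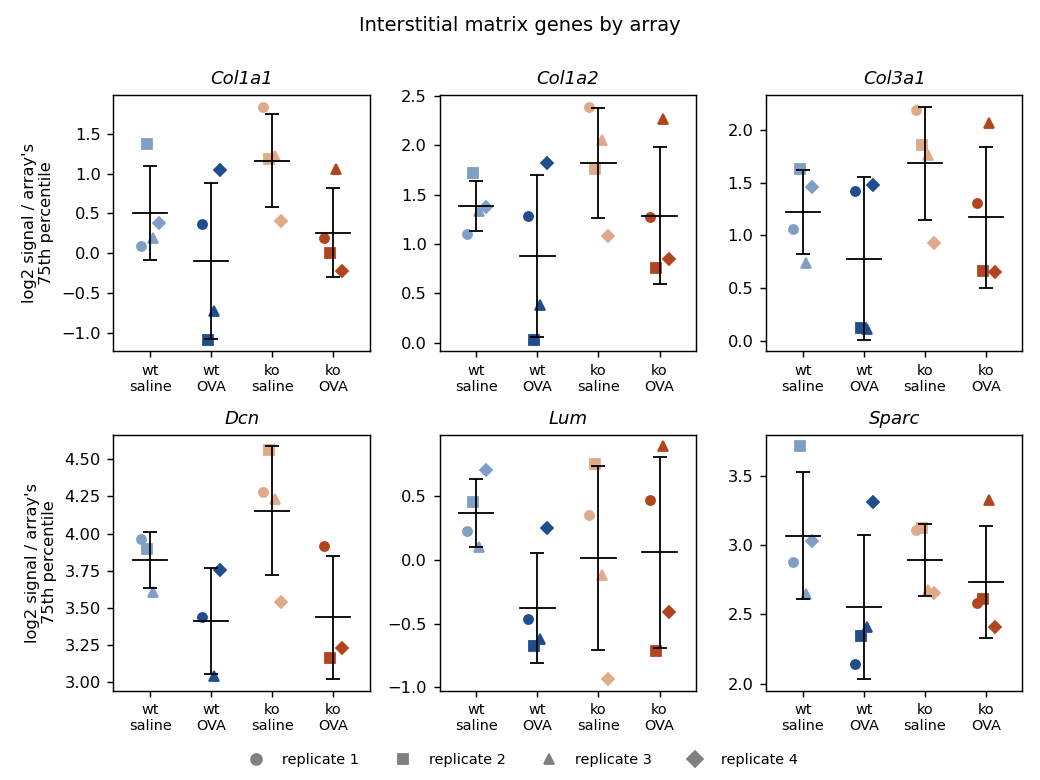
Level of Col1a1, Col1a2, Col3a1, Dcn, Lum and Sparc on every array, as log2 of signal over the array's 75th percentile, with group mean and SD. Groups overlap in each genotype for Col1a1, Col1a2 and Col3a1, with wt_OVA 2 and wt_OVA 3 lowest, and Dcn has no point for the 3 arrays on which its spot was left out.

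Dcn and Lum, small proteoglycans that bind and space collagen fibrils, and Sparc, a collagen-binding protein of remodelling tissue, had negative OVA changes over both genotypes under all 3 scalings. Their median was -0.35 (-0.48 under median scaling and -0.36 under quantile normalization), but 0 of 3 passed (limma; 1 at an unadjusted p under 0.05, against 19.7% of all genes). Dcn was 3.97, 3.89 and 3.61 in wt_saline, 3.44, 3.04 and 3.75 in wt_OVA, 4.28, 4.56, 4.24 and 3.54 in ko_saline and 3.91, 3.16 and 3.23 in ko_OVA, with wt_saline 4, wt_OVA 2 and ko_OVA 3 left out because their spots were marked as outliers. Its change over both was -0.56 ± 0.19 (adjusted p = 0.118), and it passed without ko_saline 4 (-0.67, adjusted p = 0.0409). Sparc changed by -0.51 in wt and -0.16 in ko, and Lum by -0.75 and 0.05, none of them past the threshold. The 10 fibroblast markers had a median OVA change of -0.09 over both, and 0 of 10 passed (0 at an unadjusted p under 0.05). In wt their median was 0.11, with 7 of 10 above 0, and in ko it was -0.25, with 9 of 10 below 0. In either genotype 0 of 10 passed (limma; 0 at an unadjusted p under 0.05 in wt and 1 in ko).

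Of the 10 basement membrane and network collagens, 1 changed. Col4a6 (gene ID 94216), which encodes a type IV collagen chain, fell with OVA. It was 2.55, 2.56, 2.19 and 2.49 in wt_saline and 1.30, 1.88, 1.65 and 2.02 in wt_OVA. Its ko values were 2.63, 2.41, 2.50 and 2.43 after saline and 2.16, 2.19, 1.93 and 1.79 after OVA. Every OVA array was below every saline array of its own genotype, and the lowest wt_saline array, 2.19, equalled the highest ko_OVA array to 2 decimals. The change was -0.74 ± 0.15 in wt (adjusted p = 0.0156), -0.48 ± 0.15 in ko (adjusted p = 0.211) and -0.61 ± 0.10 over both (95% interval -0.83 to -0.38, adjusted p = 0.00325). Within slides it was -0.54, -0.72 and -0.61 in wt and -0.48, -0.26 and -0.51 in ko. A second Col4a6 probe gave -0.58 in wt but 0.12 in ko, and the third gave -0.24 and -0.25. The call over both genotypes was lost under median scaling (-0.74, adjusted p = 0.13), the mean of probes (-0.36, adjusted p = 0.0796) and array position as a block (-0.56, adjusted p = 0.0739), in a range of 0.001 to 0.13. In wt 5 alternatives ended it, as did leaving out wt_saline 1, wt_saline 2 or wt_OVA 3 (adjusted p 0.0504 to 0.0581).

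Col4a1 and Col4a2, the most widespread type IV chains, had their highest value on 1 array, wt_OVA 1. Col4a1 was -3.32, -2.59, -2.35 and -2.08 in wt_saline and -0.60, -2.37, -2.43 and -1.87 in wt_OVA. In ko it was -2.49, -2.33, -2.52 and -2.36 after saline and -2.77, -3.28, -2.59 and -2.53 after OVA. The wt groups overlapped and the ko groups did not, with OVA lower in ko. The change was 0.77 in wt (adjusted p = 0.291) and -0.37 in ko (adjusted p = 0.852), and without wt_OVA 1 it was 0.36 in wt. Col8a1, a network collagen of vessel walls, was 0.36 to 0.90 in wt_saline and -0.07 to 0.30 in wt_OVA, without overlap, with a change of -0.51 ± 0.24 that did not pass (adjusted p = 0.31).

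The fibril-associated, beaded and transmembrane collagens had 2 of 10 changed genes, which moved in opposite directions. Col23a1 (gene ID 237759), a transmembrane collagen, fell with OVA. It was 0.12, 0.40, 0.33 and 0.29 in wt_saline and -0.90, -1.38, -1.62 and -0.90 in wt_OVA. In the ko groups it stood at 1.04, 0.04, 0.52 and 0.46 after saline and -0.52, -0.74, 0.45 and -1.10 after OVA. The wt groups were apart by more than 1 log2 unit, whereas ko_OVA 3 lay among the ko_saline arrays. The change was -1.48 ± 0.29 in wt (adjusted p = 0.0133) and -0.99 ± 0.29 in ko (adjusted p = 0.179), and the latter was -1.30 (adjusted p = 0.0255) without ko_OVA 3. Over both it was -1.24 ± 0.20 (95% interval -1.67 to -0.80, adjusted p = 0.00239), and this call held under all 13 alternatives and all 16 left-out arrays. Slides gave -1.01, -1.59 and -1.67 in wt and -1.56, -1.01 and -0.01 in ko. Its 3 probes did not move alike: the second gave -1.11 and -1.23, but the last, above background on 8 arrays, gave 0.39 and 0. The mean of the probes ended the call in wt (-0.73, adjusted p = 0.169, range over alternatives 0.00342 to 0.169).

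Col9a3 (gene ID 12841), a chain of the cartilage collagen type IX, lay at or near the floor after saline and was higher after OVA. It was -3.32, -3.32, -3.09 and -3.23 in wt_saline and -1.54, -2.75, -2.71 and -2.52 in wt_OVA. In ko it was -3.32, -3.32, -3.32 and -3.23 after saline and -3.02, -3.06, -2.61 and -3.11 after OVA. OVA arrays lay above the saline arrays in each genotype, and 5 of the 8 saline arrays were at the floor, so the change is measured from a clipped level. It was 0.86 ± 0.21 in wt (adjusted p = 0.0467), 0.34 ± 0.21 in ko (adjusted p = 0.69) and 0.60 ± 0.15 over both (95% interval 0.28 to 0.92, adjusted p = 0.0286). The call over both was lost with normexp background (0.43, adjusted p = 0.464), slide (0.54, adjusted p = 0.118) or position (0.31, adjusted p = 0.401) as a block, and with 6 of 16 arrays left out in turn (adjusted p 0.0503 to 0.0591). The call in wt was lost under 7 of 14 alternatives and with 13 of 16 arrays left out. Of the cartilage markers 5 of 10 were measured, with a summed signal of 12.9 to 17.0 in wt_saline, 12.7 to 24.8 in wt_OVA, 10.4 to 19.0 in ko_saline and 13.4 to 25.0 in ko_OVA. Acan and Ucma were at the floor on all saline arrays. The median OVA change of the 5 was 0.30 in wt and 0.12 in ko, with 4 above 0 and 0 below in each genotype. Over both it was 0.26, with 5 of 5 above 0, and 0 of 5 passed for OVA (limma; 1 at an unadjusted p under 0.05). The part of cartilage in the Col27a1 and Col9a3 values was not tested.

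Col16a1, a fibril-associated collagen, was 0.98, 1.13, 0.79 and 0.61 in ko_saline and 1.23, 1.35, 1.62 and 1.66 in ko_OVA, without overlap. Its change of 0.59 ± 0.15 in ko did not pass (adjusted p = 0.112), nor did 0.33 ± 0.11 over both (adjusted p = 0.085). Col17a1, the hemidesmosomal collagen of basal epithelial cells, was 2.08 to 2.83 in wt_saline with wt_saline 4 left out, 2.16 to 2.67 in wt_OVA, 2.08 to 2.90 in ko_saline and 2.34 to 3.29 in ko_OVA, which all overlapped.

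All 6 laminins tested were above background on all 16 arrays, and all 6 had a negative OVA change over both genotypes under the main, median and quantile scalings, with a median of -0.22 (-0.36 under median scaling and -0.27 under quantile normalization), yet 1 of 6 passed. Lama4 (gene ID 16775), the alpha chain of laminins in vessel walls and muscle, fell. It was -1.02, -0.58, -0.47 and -0.75 in wt_saline and -1.08, -0.91, -1.24 and -1.13 in wt_OVA. The ko arrays read -0.14, -0.46, -0.27 and -0.08 after saline and -0.77, -0.74, -0.67 and -1.52 after OVA. The ko groups did not overlap, while wt_saline 1 lay among the wt_OVA arrays. The change was -0.39 ± 0.18 in wt (adjusted p = 0.287), -0.69 ± 0.18 in ko (adjusted p = 0.111) and -0.54 ± 0.12 over both (95% interval -0.80 to -0.27, adjusted p = 0.0204). A second probe gave -0.34 and -0.79, and the third gave 0.04 and -0.41. The call was lost under median scaling (-0.67, adjusted p = 0.127), the mean of probes (-0.43, adjusted p = 0.0816), and slide (-0.49, adjusted p = 0.076) or position (-0.57, adjusted p = 0.0902) as a block, in a range of 0.0133 to 0.127. Slides gave -0.11, -0.70 and -0.16 in wt and -0.62, -0.38 and -0.59 in ko.

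Lamb3 and Lamb2 did not pass. Lamb3, the beta chain of the epithelial laminin that anchors basal cells, was 1.87, 2.44, 1.75 and 2.10 in wt_saline and 1.04, 1.38, 1.51 and 1.76 in wt_OVA, a change of -0.62 ± 0.19 (adjusted p = 0.0985). It changed by -0.03 in ko. Lamb2 changed by -0.36 in wt and -0.27 ± 0.09 over both (adjusted p = 0.112). Lama5, the main alpha chain of adult epithelial basement membranes, lay between 2.92 and 3.60.

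Of the 8 elastic fibre and crosslinking genes, 1 changed. Fbln2 (gene ID 14115), which encodes fibulin-2, a glycoprotein of elastic fibres and basement membranes, fell with OVA. It was -1.39, -0.93, -1.32 and -1.01 in wt_saline and -1.96, -2.38, -2.95 and -1.33 in wt_OVA. In ko it was -0.42, -0.62, -0.77 and -0.58 after saline and -1.56, -2.82, -0.80 and -1.96 after OVA. The ko groups were apart by a narrow margin at ko_OVA 3, and in wt wt_OVA 4 lay among the saline arrays. The change was -0.99 ± 0.37 in wt (adjusted p = 0.186), -1.19 ± 0.37 in ko (adjusted p = 0.215) and -1.09 ± 0.26 over both (95% interval -1.65 to -0.53, adjusted p = 0.0236). On slides it was 0.06, -1.13 and -1.37 in wt and -1.14, -2.13 and -0.22 in ko, so on 1 slide the wt change was not negative. The call was lost with normexp background (-0.59, adjusted p = 0.137), slide (-1.10, adjusted p = 0.0524) or position (-1.42, adjusted p = 0.0555) as a block, without wt_OVA 1 and ko_OVA 4 together (-1.09, adjusted p = 0.0693) and without wt_saline 2 (-1.05, adjusted p = 0.0539). Eln, elastin itself, was at the floor on 8 of 16 arrays and highest on ko_saline 3 (-1.97) and ko_saline 1 (-2.30). Its OVA change was 0.05 in wt and -0.41 in ko, neither past the threshold.

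Of the 12 MMPs, 1 changed. Mmp11 (gene ID 17385), stromelysin-3, known from stromal cells in remodelling tissue, fell. It was 0.03, -0.11, 0.06 and 0.22 in wt_saline and -0.81, -0.23, -0.64 and -0.83 in wt_OVA. On ko arrays the values were 0.38, 0.40, 0.07 and 0.61 after saline and 0.05, -0.61, -0.36 and -1.0 after OVA. Within each genotype every OVA array was below every saline array, with ko_OVA 1 just under ko_saline 3. The change was -0.68 ± 0.20 in wt (adjusted p = 0.0892), -0.84 ± 0.20 in ko (adjusted p = 0.0742) and -0.76 ± 0.14 over both (95% interval -1.06 to -0.46, adjusted p = 0.00502). Slides gave -0.86, -0.79 and -0.45 in wt and -0.33, -0.84 and -0.97 in ko. Median scaling (-0.89, adjusted p = 0.0686) and position as a block (-0.67, adjusted p = 0.102) ended the call, in a range of 0.0013 to 0.102. In ko the single-genotype change passed without ko_OVA 1 (-1.02, adjusted p = 0.0163), as did that in wt (-0.68, adjusted p = 0.047).

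The MMPs best known from inflammatory cells lay at the floor on most arrays, although a spot above background can lie under the floor. Mmp12, macrophage elastase, which is known to be raised in lungs of mice that lack this integrin, was at the floor on 12 of 16 arrays and off it on wt_OVA 1 (-2.60), wt_OVA 4 (-3.22), ko_saline 1 (-2.73) and ko_saline 3 (-2.49). Mmp12 was above background on 7 of 16 arrays: 1 wt_saline, 2 wt_OVA, 3 ko_saline and 1 ko_OVA. Its ko minus wt change, from floored values, was 0.35 after saline and -0.20 after OVA, neither past the threshold. Mmp9, gelatinase B of neutrophils and macrophages, was above background on 6 arrays and off the floor on wt_OVA 1 (-1.78), wt_OVA 2 (-3.24) and ko_OVA 4 (-2.98). Its OVA change of 0.41 in wt was 0.03 without wt_OVA 1. Mmp14, the membrane MMP that activates Mmp2, was 2.36 to 3.32 over all 16 arrays. The median OVA change of the 12 MMPs over both genotypes was 0.13, 0.03 under median scaling and 0.08 under quantile normalization.

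Of the 4 TIMPs, 2 changed, in opposite directions. Timp4 (gene ID 110595), an inhibitor of several MMPs, was higher with OVA. It was 1.31, 2.28, 1.60 and 1.72 in wt_saline and 2.18, 2.64, 3.21 and 3.04 in wt_OVA. In ko it was 1.87, 0.74, 1.58 and 1.99 after saline and 2.61, 2.84, 2.92 and 2.57 after OVA. The ko groups did not overlap, and in wt wt_saline 2 lay just above wt_OVA 1. The change was 1.04 ± 0.28 in wt (adjusted p = 0.068), 1.19 ± 0.28 in ko (adjusted p = 0.0771) and 1.12 ± 0.20 over both (95% interval 0.69 to 1.54, 2.17-fold, adjusted p = 0.00423). Slides gave 1.73, 1.1 and 0.92 in wt and 0.74, 1.68 and 0.93 in ko. Median scaling ended the call over both (0.98, adjusted p = 0.113, range 0.00183 to 0.113). The change in wt alone passed with the series table (1.02, adjusted p = 0.0426) and without ko_saline 2 (1.04, adjusted p = 0.0335).

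Timp3 (gene ID 21859), the TIMP that binds to the matrix itself, was lower with OVA. It was 1.20, 0.82, 1.61 and 1.46 in wt_saline and 0.35, 0.62, 0.02 and 1.45 in wt_OVA. Its ko values were 1.89, 1.39, 1.84 and 1.16 after saline and 1.01, 0.64, 1.1 and 0.14 after OVA. The ko groups did not overlap, and wt_OVA 4 lay among the saline arrays of its genotype. The change was -0.66 ± 0.30 in wt (adjusted p = 0.282), -0.84 ± 0.30 in ko (adjusted p = 0.305) and -0.75 ± 0.21 over both (95% interval -1.21 to -0.30, adjusted p = 0.0482), close to the threshold. Slides gave 0.25, -1.43 and -0.84 in wt and -0.88, -0.97 and -0.05 in ko. The call was lost under 8 of 13 alternatives and with 12 of 16 arrays left out (adjusted p 0.0557 to 0.1). Timp1, an inhibitor induced by cytokines, spread from -0.58 to 0.95 in wt_OVA and from -0.73 to 1.84 in ko_OVA, with its highest value on wt_saline 2 (2.45), and all groups overlapped. Timp2 changed by -0.42 in ko and was measured without wt_saline 3 and wt_saline 4.

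Among the 9 ADAMTS genes 0 changed (limma; 2 at an unadjusted p under 0.05 for OVA over both genotypes, a level that 19.7% of all genes reached). Adamts15, an aggrecan- and versican-cleaving protease, came closest, from 1.49 to 2.18 on saline arrays and from 1.99 to 2.94 on OVA arrays, a change of 0.52 ± 0.15 (adjusted p = 0.0522). It passed under the stricter filter on dim probes (adjusted p = 0.0462) and without wt_saline 3 (0.58, adjusted p = 0.0336), ko_OVA 1 (0.58, adjusted p = 0.0437) or ko_OVA 2 (0.59, adjusted p = 0.0332). Adamts5, the aggrecanase best known from cartilage, was 0.09, 0.10, -0.31 and 0.69 in ko_saline and -0.12, -0.75, -0.84 and -1.10 in ko_OVA, a change of -0.85 ± 0.23 (adjusted p = 0.145). Without ko_OVA 1 that change was -1.04 (adjusted p = 0.0453), and the change over both was -0.58 (adjusted p = 0.0409).

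**Figure D3:**
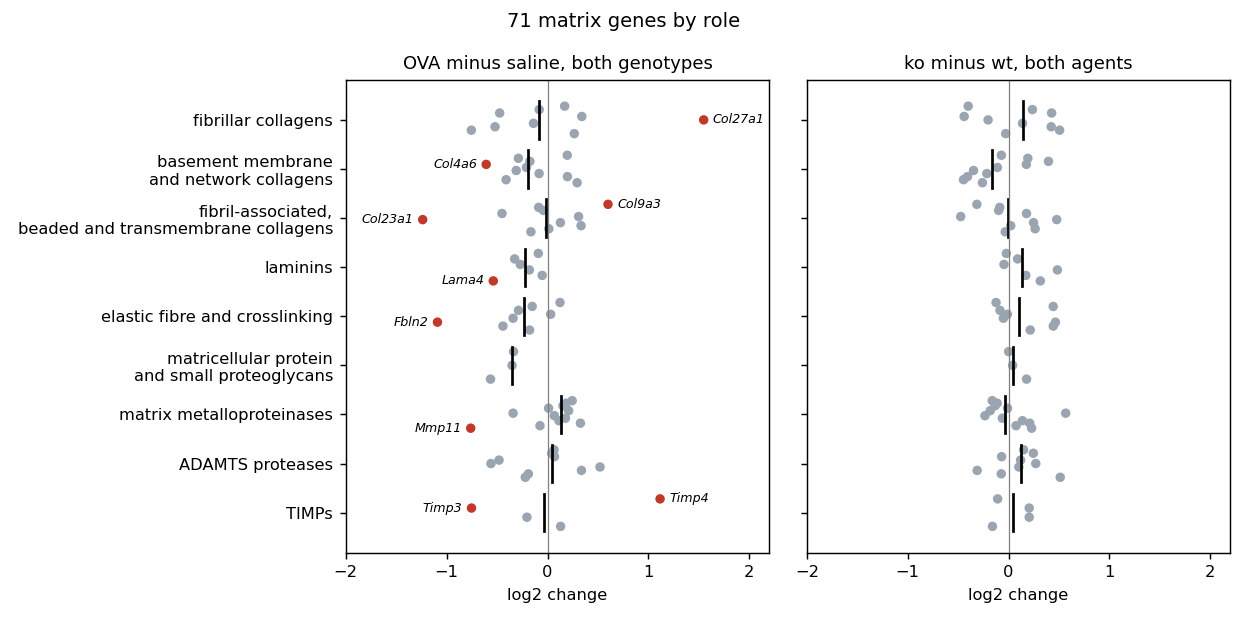
Log2 change of the 71 tested matrix genes by role, with OVA minus saline over both genotypes on the left and ko minus wt over both agents on the right. Each point is a gene, red points are called (adjusted p under 0.05) and the bar is the median of the role. The 9 red points are all on the left, and the role medians there run from -0.35 to 0.13 (the ADAMTS median, 0.04, is -0.08 under median scaling and -0.05 under quantile normalization).

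The number of genes that reached an unadjusted p under 0.05, and of genes whose groups did not overlap, were set against all genes. For OVA in wt 12 of 71 reached the unadjusted level (16.9%, against 16.5% of all genes), and 7 did not overlap (9.9%, against 9.28%). For OVA in ko 14 did (19.7%, against 9.73%), 4 higher and 10 lower, and 12 did not overlap (16.9%, against 5.23%): Col4a1, Col4a2, Col4a5, Col4a6, Fbln2, Col16a1, Col9a3, Col27a1, Lama4, Mmp11, Timp3 and Timp4. Of these, Col4a5 was at or near the floor in ko_OVA, at -3.32, -3.29, -3.32 and -3.32. Over both genotypes 17 reached the unadjusted level (23.9%, against 19.7%). Beside this, the 8 smooth muscle markers summed to 22.4 to 30.2 in ko_saline and 11.5 to 19.6 in ko_OVA, and to 13.7 to 26.4 and 11.1 to 21.6 in wt. Their median OVA change was -0.79 in ko, -0.20 in wt and -0.49 over both, with 8 of 8 below 0 over both and 1 called, Cnn1 (-2.31 ± 0.50, adjusted p = 0.0145). The endothelial markers summed to 2.24 to 3.11 in ko_saline and 1.21 to 2.51 in ko_OVA, with a median OVA change of -0.40. In wt they summed to 1.54 to 2.0 after saline and 1.5 to 3.23 after OVA, and 6 of 7 had a positive change (median 0.19). Over both genotypes their median was -0.07, 1 of 7 was called (Kdr, -1.99 ± 0.34, adjusted p = 0.00301), and Pecam1 was at the floor in 3 of 4 groups. The 8 striated muscle markers spread most between arrays, from 2.98 to 303 in ko_saline and 2.33 to 8.47 in ko_OVA, and from 3.56 to 41.5 and 2.15 to 202 in wt. Their median OVA change was -3.09 in ko, with 8 of 8 below 0, and 0.01 in wt, and 0 of 8 passed in either (limma; 2 at an unadjusted p under 0.05 in ko and 1 in wt). The 7 of 8 adipocyte markers measured summed to 2.78 to 14.5 in wt_saline, 3.63 to 55.6 in wt_OVA, 3.08 to 9.11 in ko_saline and 1.17 to 14.9 in ko_OVA. Their median OVA change was 1.53 in wt, with 7 of 7 above 0, and -0.01 in ko, and 0 of 7 passed in either (limma; 3 at an unadjusted p under 0.05 in wt and 0 in ko). The part of any of these cells in the falls of Lama4, Fbln2, Col4a6, Mmp11, Col23a1 and Timp3 was not tested.

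No matrix gene passed the test of genotype. After saline 0 of 71 passed for ko against wt (limma; 2 at an unadjusted p under 0.05, 2.8%), where 0.162% of all genes passed and 6.30% reached the unadjusted level. Adamts9, Fbln2 and Lama4 did not overlap (3 of 71, 4.2%, against 4.05% of all genes). Adamts9 was apart only by a narrow margin at the floor. It was -3.32 on all wt_saline arrays and -2.99, -3.31, -3.06 and -3.31 in ko_saline. The lowest adjusted p was that of Lamb1, 0.651, for a change of 0.72 ± 0.26, with -3.32, -2.07, -2.65 and -2.26 in wt and -2.30, -1.44, -2.03 and -1.63 in ko, which overlapped. Lama4 was 0.46 higher in ko (adjusted p = 0.683) and Col1a1 0.65 higher (adjusted p = 0.903). The median interval half-width for a member, not adjusted for the number of genes, was 0.58 log2 units. Changes well under that size were not resolved, and larger ones, as for Lamb1, did not pass either. The largest change in size of the 71 was that of Timp1 (-0.89), which did not pass.

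After OVA 0 of 71 passed (limma; 7 at an unadjusted p under 0.05, 9.9%), where 0.145% of all genes passed and 5.08% reached the unadjusted level. Col4a1 and Col7a1 did not overlap (2 of 71, 2.8%, against 2.37%). The ko minus wt change of Col4a1 was -0.98 ± 0.35 (adjusted p = 0.884), or -0.57 without wt_OVA 1. Col7a1, the anchoring fibril collagen that ties basement membrane to the tissue below, was 3.25, 3.29, 3.16 and 3.50 in wt_OVA and 3.68, 3.84, 4.19 and 4.26 in ko_OVA, a change of 0.69 ± 0.28 (adjusted p = 0.884). Its saline arrays spread from 3.10 to 4.55 in wt. Mmp2, gelatinase A of stromal cells, was -1.99, -2.17, -2.35 and -1.71 in wt_OVA and -1.14, -1.42, -0.38 and -2.07 in ko_OVA, a change of 0.81 ± 0.33 that did not pass.

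Over both agents 0 of 71 passed (limma; 6 at an unadjusted p under 0.05, 8.5%), where 0.269% of all genes passed and 7.77% reached the unadjusted level. No matrix gene kept all 8 ko arrays apart from all 8 wt arrays, as 0.194% of all genes did. The smallest adjusted p was 0.541, for Lamb1 (0.48 ± 0.19). The median change of the 71 was 0.02, beside -0.01 for all genes, and under median scaling it was 0.21 where all genes shifted to 0.18. In the same comparison 6 of 6 mast cell markers were higher in ko, with a summed signal of 1.01 to 11.9 on wt arrays and 45.0 to 90.6 on ko arrays.

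**Figure D4:**
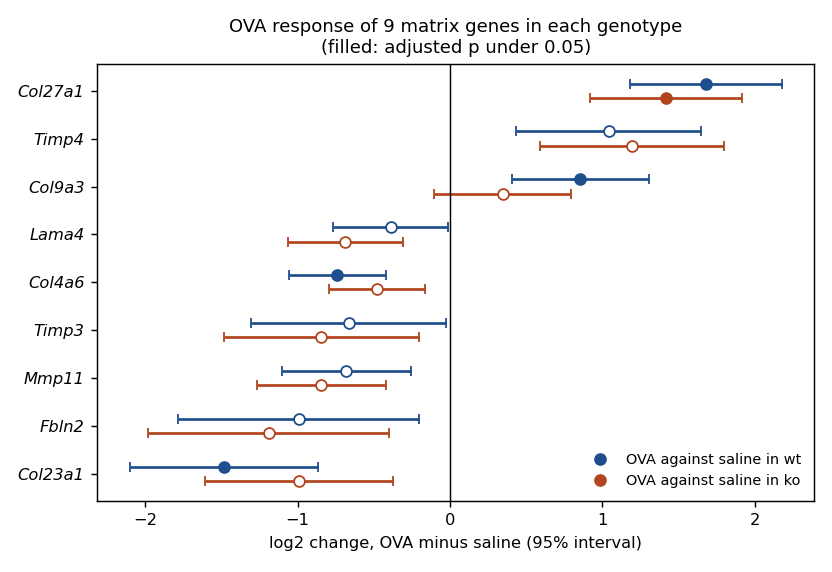
OVA minus saline, as log2 change with its 95% interval, in wt and in ko for the 9 matrix genes called over both genotypes. Filled symbols passed at an adjusted p of 0.05. The sign is the same in both genotypes for all 9, and the wt and ko intervals overlap for each.

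Whether OVA acted differently in ko was tested with the interaction of genotype and OVA. No matrix gene passed (0 of 71, limma; 5 at an unadjusted p under 0.05, 7.0%), and 0% of all genes passed while 3.06% reached the unadjusted level. Col27a1 differed between genotypes by -0.26 ± 0.33, Col9a3 by -0.51 and Col23a1 by 0.49. Those at an unadjusted p under 0.05 were Col4a2 (-1.20 ± 0.41), Col4a1 (-1.14 ± 0.50), Adamts5 (-0.73), Lamb3 (0.59) and Col16a1 (0.52), all at an adjusted p of 0.993. Without wt_OVA 1 the values for Col4a1 and Col4a2 were -0.73 and -0.96. The median half-width of the interval, which is not adjusted for the number of genes, was 0.85 log2 units. A difference in response smaller than that was not resolved, and larger ones, as for Col4a2 and Col4a1, did not pass either. The largest in size of the 71 was that of Timp1 (1.47), which did not reach the unadjusted level. Col9a3, Col4a6 and Col23a1 passed in wt and not in ko, but their interactions did not pass.

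Other matrix genes were counted on a separate list. Of 99 listed 76 were tested, and 4 rose and 1 fell with OVA in wt (6.58%, against 2.61% of all genes). In ko 1 rose (1.32%, against 0.749%), and over both genotypes 5 rose and 1 fell (7.89%, against 6.46%). Plat, tissue plasminogen activator, a protease that starts plasmin formation, rose by 1.24 ± 0.19 in wt (adjusted p = 0.00378) and 1.66 ± 0.19 in ko (adjusted p = 0.000932). Adam8 and Adam9, membrane proteases that shed surface proteins, rose over both by 0.57 ± 0.11 (adjusted p = 0.00599) and 0.54 (adjusted p = 0.0106). Ccn3, a matricellular protein, rose by 1.06 (adjusted p = 0.0106) and Has3, a hyaluronan synthase, by 0.78 (adjusted p = 0.00838). Efemp1, fibulin-3, fell by 0.74 over both (adjusted p = 0.00108). Of the 13 collagen processing genes tested 0 passed (limma; over both genotypes 3 at an unadjusted p under 0.05, against 19.7% of all genes). In the genotype comparisons and the interaction 0 of these 76 passed in limma. At an unadjusted p under 0.05 there were 12 for ko against wt after saline (15.8%, against 6.30% of all genes) and 7 after OVA (9.21%, against 5.08%). There were 12 over both agents (15.8%, against 7.77%) and 8 of 76 for the interaction (against 3.06%), so these shares lay above those of all genes although no gene passed the adjusted threshold.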

How the data were processed

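Each scanner file, as deposited, gives a background-subtracted intensity per spot, and the median intensity of spot and surrounding background, per the file headers. RNA (0.5 ug) was labelled with Cy3, per the labels' protocols. The headers name Feature Extraction 10.5.1.1, whereas the submitters' processing notes name 10.1. The series table deposited by the authors holds log2 values and was used as an alternative. Control spots and spots marked as outliers were dropped, replicate spots averaged, each array scaled to its 75th percentile and floored at -3.32 before log2 values were fitted. Probes that cleared background on 4 or more of the 16 arrays were kept (25615 of 41174). Those never above the floor were then dropped, which gave 18566 genes, with the brightest probe for each gene. RefSeq accessions named 24836 probes.

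All 16 arrays were fitted in limma 3.58.1 (R 4.3.3) with 1 mean per group and 12 residual degrees of freedom, and p-values of the 7 contrasts were adjusted by Benjamini-Hochberg over all genes at 0.05. The code was tested on simulated data. Members and lists were chosen with earlier results of these data known. Named were a set list (Lama3, Lox, Mmp12, Mmp7, Mmp9, Col1a1, Col1a2, Col3a1, Col4a1, Eln, Sparc, Dcn, Lum, Timp1; another is not reported here), every called member, and the 2 tested members of each role with the smallest p in a contrast; others (Mmp14, Col17a1, Adamts9, Col4a5) were named after their values were seen. Alternatives were median or quantile scaling, normexp background (offset 50, on median signal), the series table, other filters and floor, the mean of probes, slide, position or replicate as blocks, only the groups compared, each array left out, and 2 added after seeing the data: slide as a random block, and wt_OVA 1 and ko_OVA 4 left out together. The number of arrays limits the precision.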

Additional observations from a re-analysis of the deposited data

Results flagged for a closer look

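In 16 of 184 groups of 4 arrays (8.70%), the highest or lowest array stood apart from the others of its group by the 95% criterion of Dixon's test. Clipping at the floor means that this share cannot be set against a chance rate of 1 in 20. Where 3 arrays are at the floor, any value off it meets the criterion, and a group wholly at the floor never does. In 8 of the 16 the others were all at the floor, and 5 of the 16 were on wt_OVA 1, the array with the most probes above background. On wt_OVA 1 they were Adamts7 (-2.38), Adamts8 (-2.47), Loxl2 (-2.33), Mmp12 (-2.60) and Mmp9 (-1.78). Mmp9 also stood out on ko_OVA 4 (-2.98) and Adamts7 on ko_saline 1 (-2.93), where Col24a1 did too (-2.21). Adamts1 (-1.51) and Adamts15 (2.57) were high on wt_OVA 2. Among the genes called for OVA, Lama4 was low on ko_OVA 4 (-1.52) and Col9a3 was just off the floor on ko_saline 4 (-3.23). The rest were Col5a3 on wt_saline 4 (-2.23), Eln on wt_saline 2 (-2.66), Fbln7 on ko_OVA 3 (-2.64) and Lamb3 on ko_OVA 3 (2.14).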

How the results depend on the processing

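Under the alternatives the count of matrix genes called for OVA in wt, 4, became 1 with median scaling and 2 with normexp background, the mean of probes, array position as a block or only the groups compared. It was 5 with the series table, where Timp4 was called too, 3 with the replicate block, and 2 to 4 with single arrays left out (2 without wt_saline 1, wt_saline 2 or wt_OVA 3). The count in ko, 1, became 0 with median scaling and with only the groups compared, stayed 1 with the replicate block, and ran from 1 to 3 with arrays left out (3 without ko_OVA 1 and 2 without ko_OVA 3). Over both genotypes the count, 9, became 4 with median scaling, 5 with slide as a fixed block, 3 with position as a block, 8 with the replicate block and 10 with quantile normalization or the stricter filter, and ran from 7 to 10 with arrays left out. The cause of these changes was not tested. Genotype and interaction counts were 0 in each alternative run. No change reversed its sign among called genes, and of 6086 single values under an alternative, 76 lost and 12 gained a call. Same-numbered arrays correlated from -0.405 to 0.411 (24 pairs, median -0.008), and other-numbered arrays from -0.573 to 0.478 (72 pairs, median -0.015). These values show no pairing by replicate number, but with so wide a spread they cannot tell whether samples were paired. Slide as a random block had a consensus correlation of 0.0133. Signals near the floor limit 15 genes that were at it on 8 or more arrays.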
